A study of Mus musculus with 55 samples.

Results

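A set of 41 mouse genes that cells switch on in response to interferon, among them the guanylate-binding proteins (GBPs), was followed across 3 fat depots, 2 treatments and 2 housing temperatures. They were taken by symbol from the count tables of the 3 depots, and all 41 of the listed genes were found among the 31933 genes of the tables. RNA came from males of the C57BL/6NRj strain, 10 weeks old. For 4 weeks they drank placebo (Ctrl) or corticosterone (GC), which is the chief glucocorticoid hormone in this species, in rooms at 22 °C (labelled RT) or 13 °C (labelled CT). The depots were the brown fat between the shoulder blades (iBAT) and 2 white depots, gonadal (goWAT) and subcutaneous (scWAT). Tissue areas were cut out by laser, and about 2 ng of RNA per library went through the SMART-Seq2 protocol. The 55 libraries form 12 groups: in the order Ctrl at 22 °C, GC at 22 °C, Ctrl at 13 °C and GC at 13 °C, iBAT had 3, 5, 5 and 5 libraries, goWAT 4, 5, 5 and 5, and scWAT 4, 5, 5 and 4. The series asks how housing temperature changes what glucocorticoids do to each depot. Which animal gave which library, and how areas were chosen, is not in the labels, so p-values measure the spread between these libraries. They are too small if libraries of the same group share an animal. Libraries of different depots may also share an animal, and the main tests used no pairing. For differences between depots, p-values may then be too large or too small.

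Type I interferons signal through a receptor whose kinases activate a complex that holds STAT2 and IRF9 and binds interferon-stimulated response elements (ISRE). Interferon gamma acts through gamma-activated sequences (GAS). The genes they switch on encode more of the same signalling factors (Stat2, Irf1, Irf7 and Irf9, with Usp18 as a brake), sensors of viral RNA and DNA (Ddx58, Ifih1, Dhx58, Zbp1) and antiviral effectors (the Ifit, Oas and Mx genes, Isg15, Rsad2 and Bst2). Others encode interferon-inducible GTPases that take part in the defence against intracellular microbes (the Gbp genes, Igtp, Irgm1, Irgm2 and Iigp1). Glucocorticoids are widely used to damp inflammation. In adipose tissue, adipocytes, endothelial cells and resident immune cells can all express these genes.

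Promoter stretches are shown first for some of the members whose promoters hold ISRE or GAS letters. These are the elements by which interferon-response genes are known to be induced. Letters come from RefSeq on GRCm38.p6, the assembly also called mm10, each stretch is written 5′ to 3′ on the gene's own strand, and capitals mark matches to the ISRE letters (TTTC, any 2 bases, TTTC) or the GAS letters TTCNNNGAA, searched on both strands. A window from 250 bases before to 50 bases after the start site was found for 28 of the 41 genes.
Igtp: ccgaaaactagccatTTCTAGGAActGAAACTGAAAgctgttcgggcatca
Irgm2: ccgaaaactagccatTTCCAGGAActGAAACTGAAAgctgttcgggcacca
Irgm1: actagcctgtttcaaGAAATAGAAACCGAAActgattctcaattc
Gbp3: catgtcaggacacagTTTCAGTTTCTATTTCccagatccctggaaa
Gbp7: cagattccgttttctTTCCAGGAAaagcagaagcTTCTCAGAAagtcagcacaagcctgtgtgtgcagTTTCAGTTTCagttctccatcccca
Stat2: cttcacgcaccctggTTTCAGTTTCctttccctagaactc
Rsad2: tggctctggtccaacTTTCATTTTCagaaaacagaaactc
Isg15: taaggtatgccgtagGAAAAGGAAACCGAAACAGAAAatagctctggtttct
Ifit1: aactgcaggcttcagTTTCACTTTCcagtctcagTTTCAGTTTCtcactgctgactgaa

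The Igtp stretch lies at chr11:58199496-58199546 and that of its neighbour Irgm2 at chr11:58214887-58214937, both on the plus strand. In both genes a GAS match was followed by an ISRE match with 11 bases from start to start. The Irgm1 stretch, at chr11:48871421-48871465 on the minus strand, and the Gbp3 stretch, at chr3:142559984-142560029 on the plus strand, each held a pair of overlapping ISRE matches whose starts were 6 bases apart. Gbp7 (chr3:142530215-142530307, plus strand) had 2 GAS matches and 1 ISRE match. Stat2 (chr10:128270261-128270300, plus strand) and Rsad2 (chr12:26456548-26456587, minus strand) had 1 ISRE match each. Isg15 (chr4:156200860-156200911, minus strand) had 3 overlapping ISRE matches, and Ifit1 (chr19:34640770-34640828, plus strand) had 2 with 19 bases from start to start. In the windows of Irf7, Irf9 and Ifi44, which were also called, neither set of letters was found.

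A gene with several windows was counted once. ISRE letters were found in 19 of the 28 members with a window (67.9%) and in 1079 of all 27025 genes with a window (3.99%). GAS letters were found in 10 of the 28 (35.7%) against 2582 of 27025 (9.55%), and both in 7 of 28 against 166 of 27025 (0.614%). These are matches of letters and not measured binding. Several members sit side by side on the genome: Gbp5, Gbp7, Gbp3 and Gbp2 on chromosome 3, Gbp9, Gbp4 and Gbp6 on chromosome 5, Ifit2, Ifit3, Ifit3b and Ifit1 on chromosome 19, and Igtp with Irgm2 on chromosome 11. Of the 41 genes, 18 overlap another annotated gene. Igtp and Irgm2, Gbp4 and Gbp9, Gbp6 and Gm43302, Gbp7 and a pseudogene, and Irf9 and Rnf31 overlap on the same strand. Irf7 and Phrf1 overlap on opposite strands, and the protocol marks no strand. Reads of the genes in each of these pairs cannot be fully told apart. Reads of Ifit3 and Ifit3b, and of Oas1a and Gbp6 with their near copies, are uncertain in the same way.

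Total counts per library were lowest in scWAT at 8622178, with up to 56450653 there, against 12310822 to 53121372 for goWAT and 14043773 to 35790654 for iBAT. The adipocyte genes Adipoq (616.0 to 8693 CPM) and Plin1 (177.1 to 1188 CPM) were present in every library, and the brown fat gene Ucp1 had group means of 4427 to 7579 CPM in iBAT and of at most 347.3 CPM in the white depots. Here CPM are counts scaled to library sizes adjusted by TMM over the 55 libraries. The summed CPM of 13 macrophage markers reached 10280 in scWAT GC at 22 °C replicate 2, 6801 in replicate 3 and 5505 in iBAT GC at 22 °C replicate 5. Among the 18 scWAT libraries, Ctrl at 22 °C replicate 2 had the highest value for 26 of the 41 members. Fkbp5, a co-chaperone induced by glucocorticoids and used here to check the treatment, rose from a mean of 39.8 to 151.5 CPM in goWAT at 22 °C (log2 fold change 1.98 ± 0.38, adjusted p = 0.00301) and was not called in the other 5 comparisons of GC with Ctrl. Of 13 listed targets of the glucocorticoid receptor, Fkbp5 included, 5 rose and 3 fell in goWAT at 22 °C, 2 rose and 3 fell in scWAT at 22 °C, and none rose in the other 4 comparisons, where 3 fell in goWAT at 13 °C, 4 in scWAT at 13 °C, 2 in iBAT at 22 °C and 4 in iBAT at 13 °C. All errors of log2 fold changes are standard errors, and a gene is called where edgeR's quasi-likelihood test, Benjamini-Hochberg adjusted over all genes of a fit, gave p under 0.05.

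**Figure D1:**
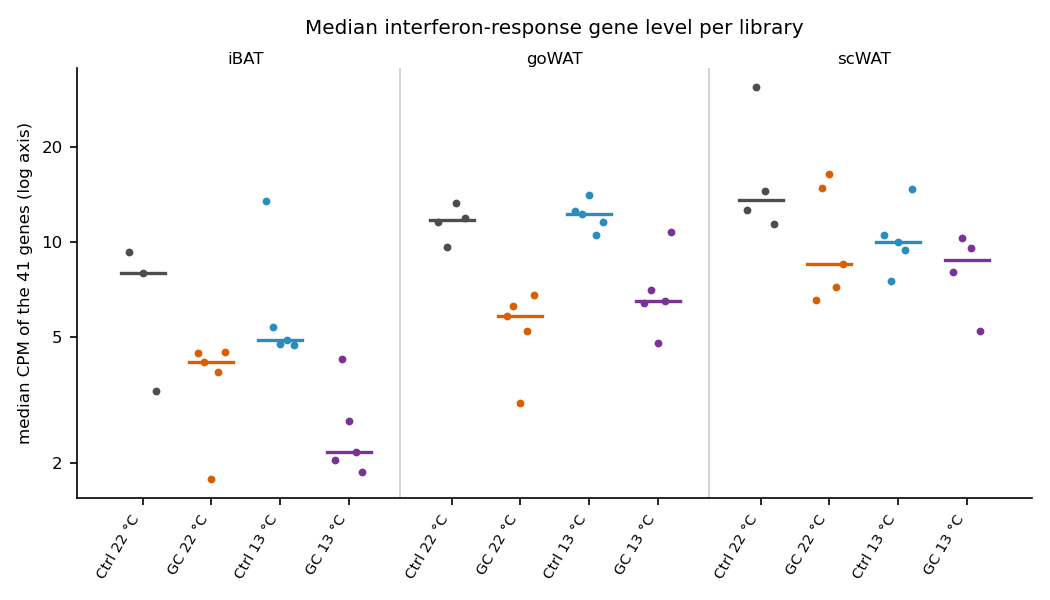
Median CPM of the 41 genes in each library (dots, log axis) for the 12 groups, with the group median as a line. The goWAT GC libraries at 22 °C (3.10 to 6.79 CPM) lie below the goWAT Ctrl libraries at 22 °C (9.62 to 13.3 CPM), and 1 scWAT Ctrl library at 22 °C reaches 30.8 CPM.

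Compared per length of exon, Ifi27l2a, an interferon-induced mitochondrial protein gene, was by far the most abundant member, with a mean level of 3566 CPM per kb over the depots. Bst2, which tethers budding virus particles (44.7 CPM per kb), Ifi35 (14.1) and Gbp2 (11.8) came next. Mx2, Mx1, Gbp5 and Oas3 had the lowest levels, from 0.186 down to 0.0537 CPM per kb. Mx2 is annotated as a polymorphic pseudogene, and whether the Mx genes make working protein in these mice was not tested. In iBAT, Mx1 had no count in 12 of 18 libraries, where 0 counts allow a level of up to 0.114 to 0.255 CPM (3 counts, counting error only), and Mx1, Gbp5 and Oas3 stayed below the count filter there. The other 38 members were tested in iBAT, and all 41 in goWAT and scWAT.

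Levels over the 12 groups are given for members of different roles. Irf7, the factor that amplifies interferon production, had means of 33.5 and 33.7 CPM in goWAT Ctrl at 22 and 13 °C, and of 10.5 and 17.7 CPM in goWAT GC. In scWAT, Irf7 stood at 34.2 and 34.8 CPM in Ctrl and at 22.5 and 21.6 CPM in GC, and in iBAT at 13.9 and 8.36 CPM in Ctrl and 7.82 and 4.21 CPM in GC. Irf7 was thus lower in GC than in Ctrl in each of the 6 pairs of groups. Gbp2, a GTPase of pathogen vacuoles, had a narrower range in the white depots, from 26.9 ± 3.44 CPM (SD, n = 5) in goWAT GC at 22 °C to 46.3 ± 6.51 CPM (n = 5) in goWAT Ctrl at 13 °C, with 31.4 to 36.9 CPM in scWAT and 11.5 to 26.6 CPM in iBAT. Irf1, an early response factor, ran from 12.3 ± 3.26 CPM (n = 5) in iBAT GC at 22 °C to 31.6 ± 2.66 CPM (n = 5) in scWAT Ctrl at 13 °C. For Irf1, no comparison of GC with Ctrl was called. Isg15, a ubiquitin-like protein joined to other proteins during the response, had means of 0.552 to 2.21 CPM in iBAT, 0.590 to 2.04 CPM in goWAT and 1.15 to 6.23 CPM in scWAT. The factor Stat2 and the effectors Ifit1 and Mx1 follow group by group. In the order Ctrl at 22 °C, GC at 22 °C, Ctrl at 13 °C and GC at 13 °C, Stat2 had means of 7.79, 7.14, 7.19 and 2.95 CPM in iBAT, 16.1, 9.0, 13.2 and 12.1 CPM in goWAT, and 12.8, 12.3, 11.4 and 14.6 CPM in scWAT. In the same order Ifit1 had 4.13, 2.54, 5.69 and 1.05 CPM in iBAT, 7.72, 2.27, 7.20 and 6.06 CPM in goWAT, and 19.1, 12.4, 6.18 and 4.13 CPM in scWAT. Mx1 had 0.312, 0.0489, 0.0161 and 0.0118 CPM in iBAT, 1.08, 0.275, 0.759 and 0.858 CPM in goWAT, and 1.004, 1.69, 0.677 and 0.856 CPM in scWAT. The SD of Ifit1 in scWAT Ctrl at 22 °C, 21.9 CPM, was larger than its mean: replicate 2 stood at 51.5 CPM and the other 3 at 4.46 to 13.4 CPM. In goWAT GC at 13 °C, Ifit1 stood at 16.7 CPM in replicate 5 and at 2.23 to 4.42 CPM in the other libraries.

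What corticosterone did in gonadal fat at 22 °C was asked with 5 GC and 4 Ctrl libraries. Of the 41 genes, 12 fell and none rose: Irf7, Irf9 and Stat2 of the signalling factors, the RNA sensor Ifih1, the GTPases Irgm2, Irgm1, Igtp, Gbp6, Gbp3, Gbp9 and Gbp4, and Ifi44. Over all 20175 genes tested, 5.98% were called, and 2.85% were called lower. By role, 7 of 11 GTPases, 3 of 6 signalling factors, 1 of 4 sensors, 1 of 6 other genes and none of 14 antiviral effectors fell. The log2 fold change was negative for 40 of 41 members with a median of -1.05, where all genes had a median of 0.05 and 46.7% negative values.

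Irf7 stood at 22.8, 34.8, 36.9 and 39.7 CPM in the goWAT Ctrl libraries at 22 °C and at 13.3, 16.96, 8.34, 6.93 and 6.86 CPM in the GC libraries. The groups did not overlap, and the lowest Ctrl library was above the highest GC library. Its log2 fold change was -1.65 ± 0.27 (adjusted p = 0.000894). Irgm2, an immunity-related GTPase, stood at 18.5, 12.5, 20.2 and 17.7 CPM in Ctrl and at 7.71, 4.16, 3.10, 2.89 and 6.28 CPM in GC. The Irgm2 groups were apart as well, with a log2 fold change of -1.79 ± 0.30 (adjusted p = 0.00115). Irgm1, its relative that controls autophagy of microbes, fell from a mean of 17.6 to 7.67 CPM (-1.15 ± 0.22, adjusted p = 0.00291). Gbp6 stood at 4.34, 7.01, 2.68 and 4.88 CPM in Ctrl and at 1.51, 0.337, 0.817, 0.918 and 1.93 CPM in GC, again without overlap (-2.01 ± 0.43, adjusted p = 0.00625).

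Ifi44, an interferon-induced gene of the cytoplasm, had the largest fall of the 12, from 3.78 to 0.683 CPM (-2.45 ± 0.50, adjusted p = 0.00504). Gbp3 fell from 16.5 to 5.23 CPM (-1.62 ± 0.34, adjusted p = 0.00636) and Gbp9 from 13.9 to 3.48 CPM (-1.93 ± 0.49, adjusted p = 0.0205). Irf9, the DNA-binding partner of STAT2, fell from 22.4 to 9.70 CPM (-1.16 ± 0.25, adjusted p = 0.00652). The GTPases Igtp and Gbp4 fell by 1.12 and 1.06 on the log2 scale, and Ifih1, which encodes the double-stranded RNA sensor MDA5, fell from 22.2 to 11.8 CPM (-0.88 ± 0.22, adjusted p = 0.0199). In Stat2, GC replicate 1 at 14.8 CPM lay among the Ctrl libraries at 13.2 to 18.8 CPM, the other GC libraries stood at 6.29 to 9.23 CPM, and its call (-0.80 ± 0.24, adjusted p = 0.0470) was lost in 21 of 25 alternatives. Irf7, Irf9, Ifi44, Gbp3, Irgm1, Irgm2 and Gbp6 were called in all 25.

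The antiviral effectors of goWAT at 22 °C had 14 of 14 negative fold changes with a median of -1.17. None was called by edgeR, and 5 had an unadjusted p under 0.05, as did 4509 of all 20175 genes. DESeq2 called 2, Ifit1 and Oasl2, where it called 2367 of 22159 genes. Ifit1, which binds foreign RNA caps, stood at 13.5, 5.04, 5.39 and 6.98 CPM in Ctrl and at 1.82, 2.81, 0.953, 4.27 and 1.52 CPM in GC. These groups did not overlap either, and the log2 fold change of -1.72 ± 0.52 missed the threshold (adjusted p = 0.0507). Mx1 had means of 1.08 and 0.275 CPM with overlapping groups (-2.09 ± 1.19, adjusted p = 0.309). Ifi35 was the 1 member with a positive value (0.43 ± 0.19, adjusted p = 0.172). ISRE letters were found for 6 of the 9 called members with a window (66.7%) and for 13 of the 19 that were not called (68.4%).

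**Figure D2:**
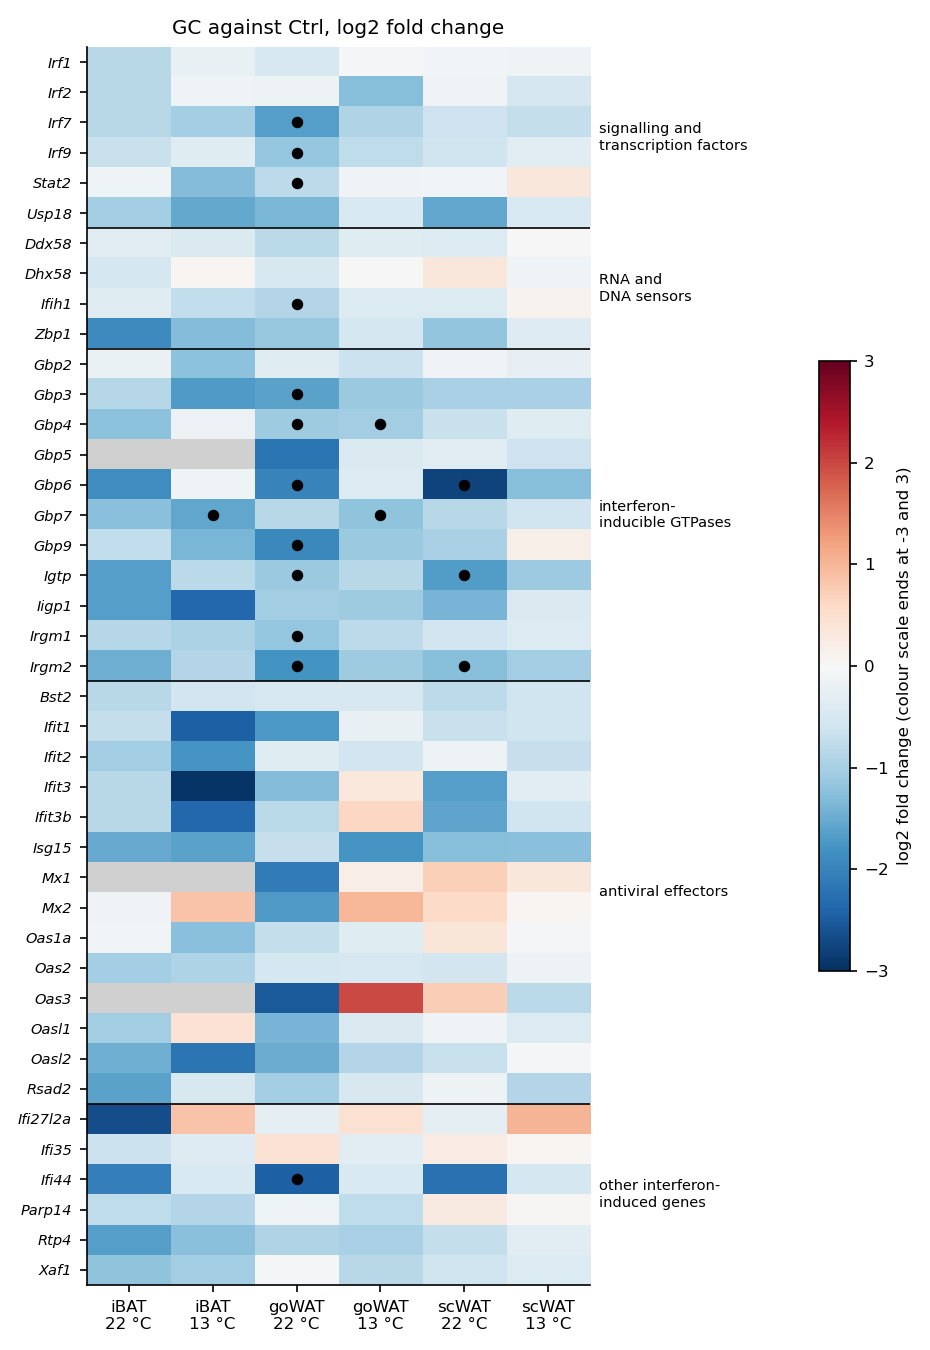
Log2 fold changes of GC over Ctrl for the 41 genes (rows, grouped by role) in the 3 depots at 22 and 13 °C (columns), with a black dot where a gene was called and grey where it stayed below the count filter. The dots gather among the GTPases in goWAT at 22 °C, where 7 of 11 fell.

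Markers of T and NK cells and of endothelial cells moved with the members in goWAT at 22 °C. Of 12 T and NK cell markers, 3 fell (Cd3g, Cd4 and Klrb1c) with a list median of -1.96, and their summed CPM was 13.0 to 26.1 in Ctrl and 3.67 to 7.66 in GC, with each marker counted in both groups. Sums of 9 B and plasma cell markers went the other way, at 81.2 to 398.0 CPM in Ctrl and 337.5 to 963.1 CPM in GC, with overlap. Summed CPM of 9 dendritic cell markers was 27.2 to 56.7 in Ctrl and 18.2 to 40.99 in GC, with 0 of 9 called. Of 13 macrophage markers 0 were called, with a median of 0.43 and sums of 733.2 to 1041 CPM in Ctrl and 937.6 to 1949 CPM in GC. Of 10 endothelial markers 2 fell (Esam and Kdr) with a list median of -0.64, and their sums were 822.0 to 1209 CPM in Ctrl and 331.6 to 864.2 CPM in GC, with a small overlap. Sums of 10 cell cycle markers did not overlap, at 18.0 to 38.0 CPM in Ctrl and 7.07 to 14.7 CPM in GC, with 0 of 10 called. Of 6 tested skeletal muscle markers 3 rose, of 10 fibroblast and preadipocyte markers 1 fell, and of 10 white adipocyte markers 1 rose and 2 fell. The part of these cells in the fall of the members was not tested, and in such bulk samples fewer cells of a type and less RNA per cell cannot be told apart. Leaving out goWAT GC replicates 2 and 4, which an earlier look at these data had marked as low in quality, gave 13 called members. In that fit 709 of 20672 genes were called. Of the 12, 8 were among them, while Gbp4, Gbp9, Ifih1 and Stat2 lost their call.

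**Figure D3:**
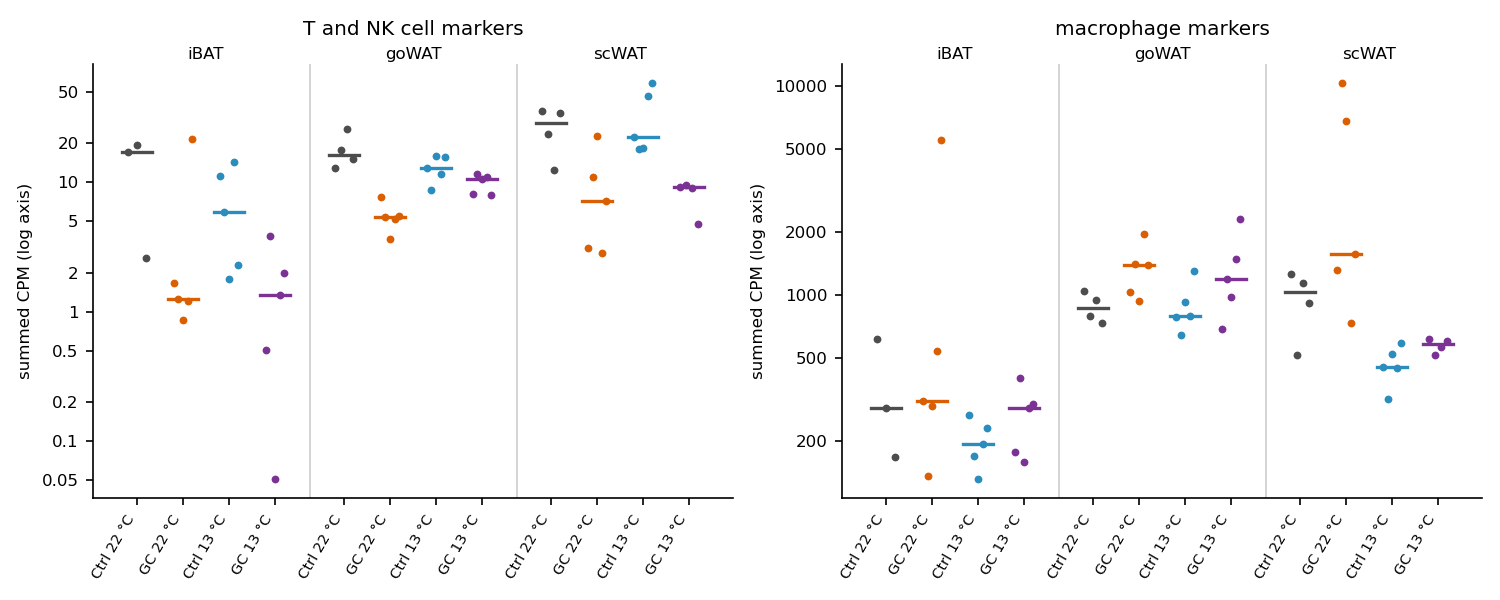
Summed CPM of 12 T and NK cell markers and of 13 macrophage markers in each library of the 12 groups (log axis, dots are libraries, lines are group medians). T and NK cell sums in goWAT at 22 °C do not overlap between Ctrl (13.0 to 26.1) and GC (3.67 to 7.66), while macrophage sums reach 10280 in 1 scWAT GC library.

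In gonadal fat at 13 °C, Gbp7 and Gbp4 fell in 5 GC against 5 Ctrl libraries and no member rose. Of all genes, 1.45% were called and 0.600% were called lower. Gbp7, a GTPase encoded in the chromosome 3 cluster, stood at 47.1, 25.7, 48.1, 24.9 and 32.9 CPM in Ctrl and at 12.6, 19.1, 11.6, 17.1 and 16.5 CPM in GC. Its groups did not overlap (-1.20 ± 0.26, adjusted p = 0.0198). Gbp4 stood at 8.30, 7.73, 15.4, 10.2 and 12.4 CPM in Ctrl and at 6.40, 5.09, 4.75, 4.19 and 5.37 CPM in GC, again apart (-1.05 ± 0.26, adjusted p = 0.0415).

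All 11 GTPases had negative values in goWAT at 13 °C with a median of -1.05. Of these, 9 had an unadjusted p under 0.05, as did 3114 of all 20175 genes. The signalling factors were negative in 6 of 6 (median -0.61), and the effectors in 9 of 14 (median -0.41). Over the 41 members the median was -0.47 with 34 negative, against 0.01 and 49.6% for all genes. Irf7 (-0.91 ± 0.25, adjusted p = 0.0726), Irgm2 (-1.07 ± 0.28, adjusted p = 0.0572) and Irgm1 (-0.79 ± 0.21, adjusted p = 0.0543) missed the threshold although their groups did not overlap. T and NK cell markers, with 0 of 12 called, summed to 8.67 to 15.9 CPM in Ctrl and 8.06 to 11.6 CPM in GC, which overlapped. The count of 2 depended on single libraries: it was 0 without Ctrl replicate 1, Ctrl replicate 3 or GC replicate 3. DESeq2 called 10 members, of which 7 were GTPases and 3 were the factors Irf2, Irf7 and Irf9. It also called more genes in all, 962 of 18597, against 292 of 20175 in edgeR.

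In subcutaneous fat at 22 °C, 3 GTPases fell in 5 GC against 4 Ctrl libraries, and no member rose. Of all genes, 6.93% were called and 3.45% were called lower. Gbp6 stood at 6.26, 30.2, 4.52 and 6.55 CPM in Ctrl and at 1.45, 2.48, 2.18, 1.16 and 1.54 CPM in GC. Each Ctrl library was above each GC library (-2.77 ± 0.50, adjusted p = 0.00168). Igtp, another immunity-related GTPase, stood at 22.2, 67.2, 14.5 and 13.4 CPM in Ctrl and at 9.57, 13.3, 8.64, 5.46 and 9.56 CPM in GC. The lowest Ctrl library (13.36 CPM) was just above the highest GC library (13.35 CPM), with a log2 fold change of -1.68 ± 0.43 (adjusted p = 0.0201). Irgm2 fell from 26.1 to 11.0 CPM with overlapping groups (-1.27 ± 0.35, adjusted p = 0.0316).

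Ctrl replicate 2 was the highest of the 4 Ctrl libraries for each of these genes. Without it, only Gbp6 was called, and the median over the members moved from -0.60 with 34 of 41 negative to -0.12 with 24 negative. Over all genes of the main fit the median was 0.06, with 46.1% negative. Without GC replicates 2 and 3, the libraries rich in macrophage markers, 8 members were called (Zbp1, Ifi44, Oasl2, Usp18, Ifit1, Bst2, Irgm2 and Gbp6) and the median was -1.29. In that fit 738 of 19208 genes were called. Without all 3 libraries, Gbp6 was again the 1 member called (adjusted p = 0.0267), with 422 of 19159 genes called, and the member median was -0.71 with 33 negative. Gbp6 was called in all 24 alternatives.

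Outside the GTPases edgeR called 0 members in scWAT at 22 °C. An unadjusted p under 0.05 was found for 4 members outside the GTPases, and for 4216 of all 19003 genes. DESeq2 called Ifi44 and Usp18, where it called 2330 of 22088 genes. The median was -0.97 over the GTPases, with 11 of 11 negative, and -0.35 over the effectors, with 10 of 14 negative. Ifit3, an antiviral effector, shows how far 1 library can carry a mean. It stood at 11.5, 136.9, 15.1 and 8.0 CPM in Ctrl, and its fold change of -1.65 ± 0.74 was not called (adjusted p = 0.199). Of 12 T and NK cell markers 3 fell (Cd3d, Cd8a and Trac), with sums of 12.5 to 35.6 CPM in Ctrl and 2.85 to 22.7 CPM in GC. Sums of 9 B and plasma cell markers were 31.1 to 72.4 CPM in Ctrl and higher in GC, at 81.2 to 580.0 CPM, without overlap. Of 13 macrophage markers 3 rose, with sums of 516.6 to 1257 CPM in Ctrl and 729.4 to 10280 CPM in GC, and 9 of 10 brown adipocyte markers fell. Their part in the members' values was not tested.

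In subcutaneous fat at 13 °C (4 GC and 5 Ctrl libraries), edgeR and DESeq2 called 0 of 41 members, where edgeR called 2.59% of all genes. An unadjusted p under 0.05 was found for 5 members and for 2929 of all 19003 genes. Irgm2 (-1.04 ± 0.36, adjusted p = 0.136) and Gbp6 (-1.27 ± 0.50, adjusted p = 0.203) had the smallest p-values. The median over the members was -0.41 with 32 negative, against 0.007 and 49.4% for all genes, and 10 of 11 GTPases were negative. T and NK cell markers summed to 18.2 to 58.2 CPM in Ctrl and 4.73 to 9.63 CPM in GC, without overlap and with 0 of 12 called.

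In brown fat, 38 of 38 tested members had negative values at 22 °C (5 GC and 3 Ctrl libraries) with a median of -0.85. Over all genes 49.6% were negative, with a median of 0.005. Yet edgeR called 0 members, where 0.664% of all genes were called. DESeq2 called 2, Rsad2 and Gbp6, where it called 420 of 15582 genes. In edgeR 13 members had an unadjusted p under 0.05, as did 1903 of all 17163 genes. Rsad2, whose enzyme product viperin makes a chain terminator of viral RNA, stood at 15.3, 21.2 and 12.7 CPM in Ctrl and at 5.40, 4.26, 4.10, 4.41 and 8.60 CPM in GC. The groups were apart, and the value missed the threshold in edgeR (-1.61 ± 0.40, adjusted p = 0.0683). Gbp6 stood at 5.78, 11.2 and 1.495 CPM in Ctrl and at 1.21, 2.70, 0.793, 2.21 and 1.604 CPM in GC, with overlap (-1.85 ± 0.55, adjusted p = 0.146).

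The 3 brown fat Ctrl libraries at 22 °C were not alike. Replicate 3 had a member median of 3.38 CPM against 9.32 and 8.0 CPM in replicates 1 and 2, with 775.4 CPM of Adipoq against 4463 and 5381 CPM. Without replicate 3 the median over the members was -1.24 with 37 of 39 tested members negative. Sums of 7 erythrocyte markers were 6802 to 26280 CPM in Ctrl and 1575 to 8509 CPM in GC (list median -1.41), and those of 10 skeletal muscle markers were 38.8 to 419.6 and 1.63 to 206.8 CPM (-2.22), with 0 called in either list. The list median was -2.13 over 5 tested dendritic cell markers and -0.61 over 5 tested T and NK cell markers, with 0 called, and -0.81 over 10 fibroblast and preadipocyte markers, of which 1 fell (Lum). The part of these cells and of replicate 3 in the members' values was not tested.

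In brown fat at 13 °C, Gbp7 fell and no other member was called, with 0.728% of all genes called and 0.408% called lower. Gbp7 stood at 26.7, 13.8, 11.1, 14.8 and 8.69 CPM in Ctrl and at 4.09, 4.32, 9.09, 4.29 and 4.28 CPM in GC. GC replicate 3 lay above 1 Ctrl library, and the other GC libraries were below all 5 (-1.55 ± 0.36, adjusted p = 0.0433). Of the 38 members 34 were negative, with a median of -0.94, against 48.4% and 0.02 for all genes. Ifit1 stood at 12.3, 5.24, 4.35, 2.81 and 3.69 CPM in Ctrl and at 0.425, 0.118, 1.23, 2.25 and 1.22 CPM in GC, without overlap (-2.45 ± 0.68, adjusted p = 0.110). Ctrl replicate 1 was the highest of the 18 iBAT libraries for 17 of the 41 members. The Gbp7 call was borderline: the count was 0 when any 1 of 11 libraries was left out. Of the 12 T and NK cell markers only 5 passed the count filter in iBAT and 0 were called. Cd3e had no count in 5 of the 18 libraries and Ncr1 none in 14.

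**Figure D4:**
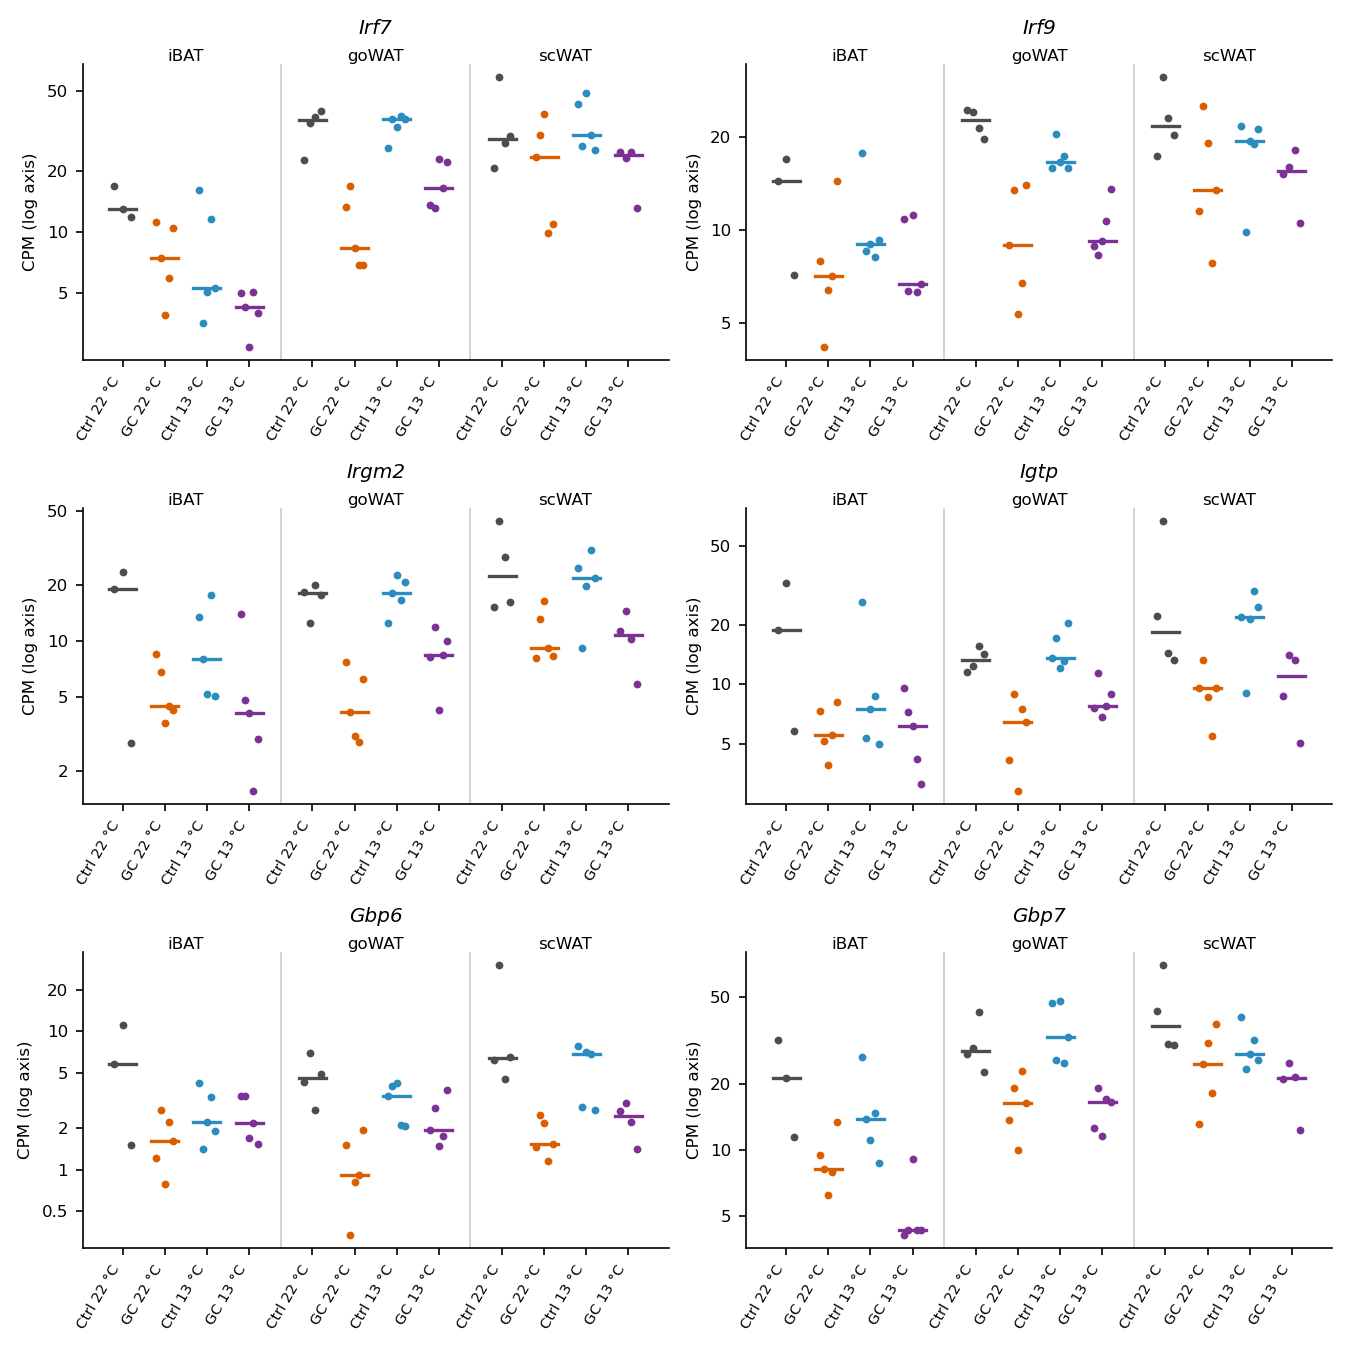
CPM of Irf7, Irf9, Irgm2, Igtp, Gbp6 and Gbp7 in each library of the 12 groups (log axis, dots are libraries, lines are group medians). In goWAT at 22 °C the Ctrl and GC dots of Irf7 do not overlap (22.8 to 39.7 against 6.86 to 16.96 CPM), and in scWAT 1 Ctrl library at 22 °C stands at 67.2 CPM for Igtp.

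Of the 38 members tested in all depots, 25 (65.8%) had negative values in all 6 comparisons of GC with Ctrl, as did 857 of 16667 genes (5.14%). These 6 comparisons share no library, but those of different depots may share animals, and reads of some members cannot be fully told apart. The comparisons and the genes are therefore not shown to be independent. Whether the GC effect differed between depots was tested over the 55 libraries. At 22 °C edgeR called 0 of 41 members, where 0.742% of all genes were called. An unadjusted p under 0.05 was found for 2 members and for 3810 of all 22245 genes. DESeq2 called Ifi35 alone among the members, and 791 of 21330 genes. Ifi35 had the smallest p-value (adjusted p = 0.131), ahead of Ifi27l2a (adjusted p = 0.215). At 13 °C edgeR called 0 members, where 0.234% of all genes were called. An unadjusted p under 0.05 was found for 3 members and for 2737 of all 22245 genes. DESeq2 called Stat2 alone among the members, and 302 of 20110 genes. Stat2 (adjusted p = 0.140) and Ifit3 (adjusted p = 0.210) had the smallest p-values. Stat2 stood at 7.19 CPM in Ctrl and 2.95 CPM in GC in iBAT at 13 °C, at 13.2 and 12.1 CPM in goWAT, and at 11.4 and 14.6 CPM in scWAT.

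Housing at 13 °C against 22 °C called few members. In Ctrl libraries edgeR and DESeq2 called 0 members in each depot. The share of all genes that edgeR called was 0.0175% in iBAT, 0.312% for goWAT and 0% for scWAT. An unadjusted p under 0.05 was found for 4, 3 and 12 members, and for 1500 of 17163, 1370 of 20175 and 2364 of 19003 genes. Rsad2 (-1.37 ± 0.41, adjusted p = 0.323) and Ifi27l2a (-2.63 ± 0.84, adjusted p = 0.362) had the smallest p-values in iBAT, and Mx2 (-2.22 ± 0.92, adjusted p = 0.618) and Ifi27l2a (-1.14 ± 0.51, adjusted p = 0.676) in goWAT. In scWAT they were Ifi27l2a (-1.45 ± 0.45, adjusted p = 0.268) and Rtp4, a chaperone of receptors (-1.46 ± 0.46, adjusted p = 0.268). The member median in scWAT Ctrl was -0.68 with 37 of 41 negative, and -0.15 with 27 negative without Ctrl replicate 2 at 22 °C. Over all genes of the main fit the median was -0.009, with 50.6% negative.

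In GC libraries, Rsad2 was lower at 13 °C than at 22 °C in scWAT and was the 1 member called, where 8.18% of all genes were called and 5.17% were called lower. It stood at 9.92, 36.8, 50.4, 7.28 and 15.9 CPM at 22 °C and at 6.95, 8.33, 6.58 and 5.80 CPM at 13 °C (-1.80 ± 0.49, adjusted p = 0.0315). The highest values belonged to replicates 2 and 3, which also carried the macrophage markers, of which 11 of 13 were lower at 13 °C. Without those 2 libraries the fold change of Rsad2 was -0.67 (adjusted p = 0.387), no member was called by edgeR, and the member median moved from -0.44 to 0.14. The median over all genes was -0.003 with those libraries and 0.03 without them. In goWAT most values were positive: 11 of 41 members had negative values and the median was 0.41, against 50.1% negative and -0.002 for all genes. An unadjusted p under 0.05 was found for 15 members and for 2890 of all 20175 genes. There edgeR called 0 members and 0.0149% of all genes. DESeq2 called 1, Irgm1, which stood at 8.96, 7.75, 6.70, 5.599 and 9.32 CPM at 22 °C and at 12.1, 18.2, 12.7, 9.97 and 14.9 CPM at 13 °C. The groups did not overlap (0.81 ± 0.21, adjusted p = 0.112), and Ifit3 followed (1.49 ± 0.46, adjusted p = 0.170). Ifit3 stood at 4.72 to 7.89 CPM at 22 °C and at 8.18, 8.85, 10.03, 8.04 and 50.9 CPM at 13 °C. Its fold change ran from 0.52 to 1.67 with 1 library left out. In iBAT edgeR and DESeq2 called 0 members, where edgeR called 0.00583% of all genes. An unadjusted p under 0.05 was found for 5 members and for 2664 of all 17163 genes. Stat2 (-1.28 ± 0.43, adjusted p = 0.183) and Oas1a (-2.35 ± 0.90, adjusted p = 0.227) led the members.

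Whether temperature changed the GC effect was tested as an interaction, the log2 fold change at 13 °C minus that at 22 °C. edgeR and DESeq2 called 0 members in each depot, where the share of all genes called was 0% in iBAT, 0.461% for goWAT and 0% for scWAT. In goWAT 9 members had an unadjusted p under 0.05, as did 2707 of all 20175 genes. The member median there was 0.48, against -0.04 for all genes. Ifi35 (-0.77 ± 0.26, adjusted p = 0.201) and Ifi44 (1.99 ± 0.67, adjusted p = 0.207) led there. In iBAT (3 with an unadjusted p under 0.05, against 1098 of all 17163 genes) they were Ifi27l2a (3.51 ± 1.13) and Gbp6 (1.71 ± 0.74), both with an adjusted p of 0.765. In scWAT (1 with an unadjusted p under 0.05, against 1838 of all 19003 genes) Gbp6 had 1.503 ± 0.68 (adjusted p = 0.488) and Ifi27l2a 1.30 ± 0.63 (adjusted p = 0.521). The 12 calls in goWAT at 22 °C and the 2 at 13 °C are therefore not shown to differ by temperature.

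Most members differed between the depots. Over the 4 groups of each depot, 38 of 41 members were lower in brown than in subcutaneous fat and 1 was higher, where 44.6% of all genes were called and 26.5% were called lower. The median was -1.24, against -0.15 over all genes. All 6 signalling factors, 13 of 14 effectors, 10 of 11 GTPases and 3 of 4 sensors were lower. Irf7 had means of 8.58 CPM in iBAT and 28.3 CPM in scWAT (-1.81 ± 0.19, adjusted p = 2.73e-11). Mx1 had 0.0973 and 1.06 CPM (-4.40 ± 0.77, adjusted p = 4.61e-06), Gbp2 19.3 and 34.7 CPM (-0.91 ± 0.16, adjusted p = 5.58e-06), Isg15 1.30 and 3.18 CPM (-1.24 ± 0.38, adjusted p = 0.00574), and Bst2 31.7 and 58.0 CPM (-0.84 ± 0.16, adjusted p = 1.35e-05). Dhx58, the sensor LGP2, was the member higher in iBAT, at 9.62 against 7.004 CPM (0.45 ± 0.19, adjusted p = 0.0438). That call was lost in 19 of 60 alternatives, among them the fit without the low count filter. Gbp6 (-0.50 ± 0.25, adjusted p = 0.0975) and Mx2 (-0.76 ± 0.54, adjusted p = 0.261) were not called.

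Against gonadal fat, 28 of 41 members were lower in iBAT and 1, Dhx58, was higher (9.62 against 4.90 CPM, 0.97 ± 0.18, adjusted p = 1.20e-05), where 57.4% of all genes were called and 34.1% were called lower. Irf7 led with 8.58 against 23.9 CPM (-1.44 ± 0.19, adjusted p = 3.45e-09). Isg15 (1.30 in both depots) and Bst2 (31.7 and 31.6 CPM) were not called. Between the white depots, 8 members were lower in goWAT than in scWAT and none was higher, where 18.0% of all genes were called and 9.12% were called lower: Bst2 (31.6 against 58.0 CPM, -0.81 ± 0.15, adjusted p = 9.66e-05), Rtp4 (13.0 against 31.96 CPM, -1.21 ± 0.25, adjusted p = 0.00034), Isg15, Usp18, Igtp, Dhx58, Gbp6 and Zbp1. Gbp2, at 34.7 CPM in both white depots, was not called. Without scWAT Ctrl at 22 °C replicate 2 the count was 3. By mean level scWAT was the highest depot for 37 of 41 members, goWAT for 3 and iBAT for 1, and iBAT was the lowest for 37.

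**Figure D5:**
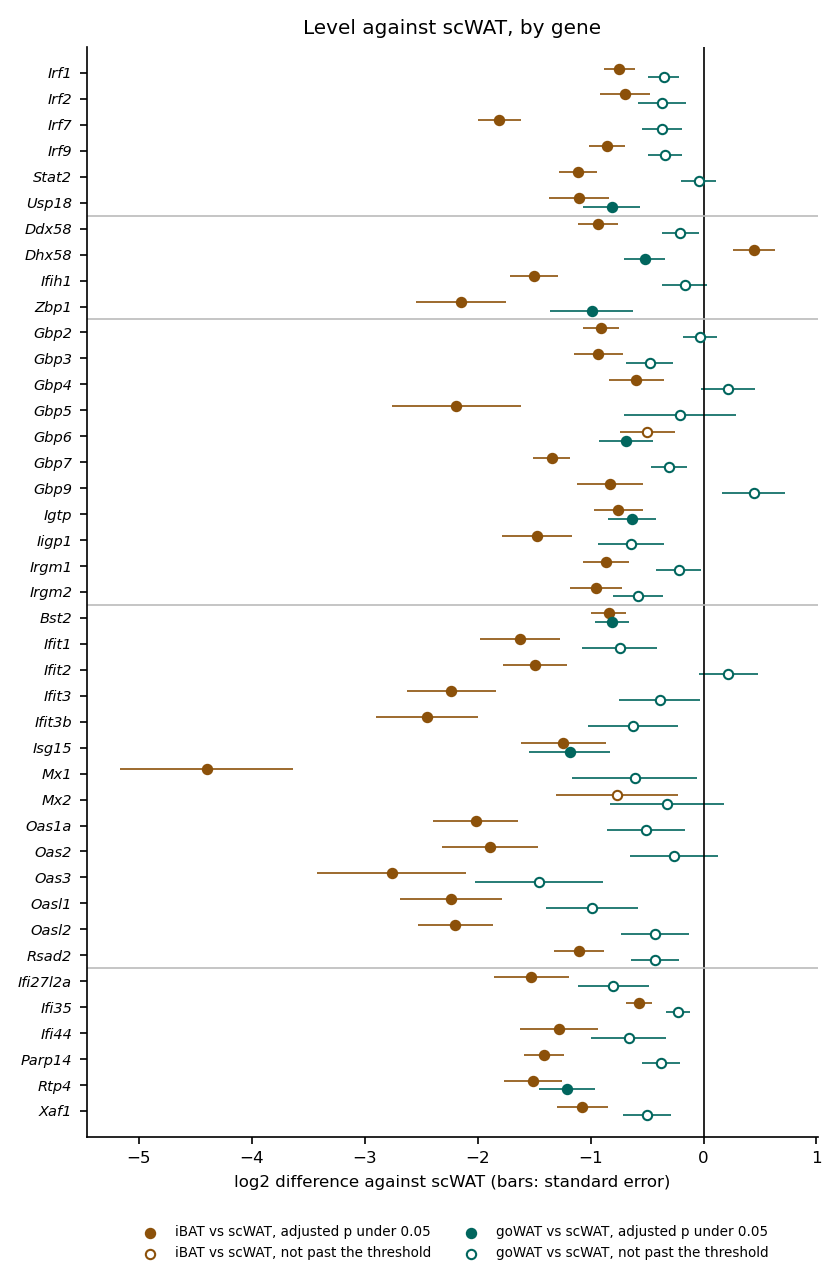
Log2 difference in level (dots, bars are standard errors) of the 41 genes between iBAT and scWAT and between goWAT and scWAT, filled where called. In the first comparison 38 genes lie below 0 and are called, and in the second 8.

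Immune cell markers also differed between the depots. In iBAT against scWAT, 13 of 13 macrophage, 10 of 12 T and NK cell, 5 of 9 dendritic cell and 7 of 8 tested B and plasma cell markers were lower, with medians of -1.66, -2.15, -1.97 and -2.41, as were 2 of 8 neutrophil markers. In goWAT against scWAT, 1 of 13 macrophage, 3 of 8 tested B and plasma cell and 1 of 8 neutrophil markers were higher, and 0 of 12 T and NK cell and 0 of 9 dendritic cell markers were called. The part of these cells in the depot differences of the members was not tested.

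Other genes of the pathway were taken from written lists. None of 9 receptor and kinase genes was called in GC against Ctrl apart from Jak1, which rose in scWAT at 22 °C (0.73 ± 0.22, adjusted p = 0.0445). The receptor genes Ifnar1 (group means of 21.0 to 43.9 CPM) and Ifngr1 (87.9 to 425.7 CPM) were not called. Ifng had group means of at most 0.117 CPM. Of 13 ligand genes 3 had a row and none passed the count filter. Among brakes of the pathway, Ptpn11 rose in goWAT at 22 °C (1.82 ± 0.29, adjusted p = 0.000716) and 13 °C (1.17 ± 0.26, adjusted p = 0.0247) and in scWAT at 22 °C (1.25 ± 0.35, adjusted p = 0.0312). Socs1 rose at 13 °C in goWAT (2.45 ± 0.50, adjusted p = 0.0137) and scWAT (2.79 ± 0.51, adjusted p = 0.00362).

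Genes of MHC class I presentation, which interferon also induces, fell in goWAT at 22 °C in 5 of 14 cases, led by the peptide transporter Tap1 (-1.90 ± 0.28, adjusted p = 0.000343) and the immunoproteasome subunit Psmb8 (-1.60 ± 0.31, adjusted p = 0.0030). In scWAT at 22 °C 4 of 14 fell, among them Psmb9 (-1.13 ± 0.23, adjusted p = 0.00443), and none was called at 13 °C or in iBAT. Of 7 class II genes 4 fell in goWAT at 22 °C, led by H2-Eb1 (-2.51 ± 0.40, adjusted p = 0.000732), 3 in goWAT at 13 °C, led by Cd74 (-1.95 ± 0.32, adjusted p = 0.00256), and 1 in scWAT at 13 °C. Of 39 tested further interferon-stimulated genes 11 fell in goWAT at 22 °C, led by Gbp11 (-4.70 ± 0.67, adjusted p = 0.000276), 2 in scWAT at 22 °C (Gbp8 and Gbp11) and 1 in goWAT at 13 °C (Slfn5). Of 7 tested chemokine genes, Cxcl9 fell in goWAT (-1.28 ± 0.30, adjusted p = 0.0112) and scWAT (-1.27 ± 0.32, adjusted p = 0.0179) at 22 °C. In scWAT at 22 °C Ccl8 also fell (-2.37 ± 0.69, adjusted p = 0.0443) and Ccl2 rose (4.62 ± 1.16, adjusted p = 0.0231). Of 16 tested sensing genes 3 fell in goWAT at 22 °C (Aim2, Adar and Ifi203), and Traf3 rose in scWAT at 22 °C. These lists were not tested as sets.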

How the data were processed

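The authors deposited whole-number counts of reads per gene, 1 table for each depot, of 31933 genes. The submitters' processing notes name FastQC, the aligner GSNAP, the counter featureCounts 1.6.3 and the build mm10. Which annotation release and strand setting were used, and what was done with reads that map to several places, is not given in the sources used here. Gene IDs were matched to GENCODE M21 on GRCm38, and 31894 had a symbol. No column was left unused.

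A separate model per depot was fitted in edgeR 4.0.16 (R 4.3.3): filterByExpr (minimum count 10, minimum total 15), TMM scaling, 1 mean per group and a robust quasi-likelihood F-test. This kept 17163 genes for iBAT, 20175 for goWAT and 19003 for scWAT. A fit of all 55 libraries (22245 genes) compared the depots. There were 20 comparisons. Benjamini-Hochberg adjustment ran over all genes of a comparison. The biological coefficient of variation was 47.8% to 52.95%. Standard errors come from the F statistic. The code was tested on simulated data.

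Alternatives were DESeq2 1.42.0, relative log expression factors, no filter, a replicate block and libraries left out. The members and gene lists were chosen with earlier results of these data known. Full values are given for members called in at least 1 comparison and, where none was called, for the 2 smallest p-values. Irf7, Isg15, Ifit1, Gbp2, Irf1, Mx1, Stat2 and, outside the members, Ifnar1, Ifngr1, Ifng and Fkbp5 were named by rule. Other pathway genes are named only where called, and 1 result is not reported here. Ifit3, for the spread of its Ctrl libraries, Ifi27l2a and Bst2, for their levels, were chosen after their values were seen.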

Additional observations from a re-analysis of the deposited data

Results flagged for a closer look

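Within groups of 4 or 5 libraries, a library was picked out when its gap to the nearest other, divided by the range of the group on the log2(CPM + 0.5) scale, passed Dixon's 95% critical value. Of 209 combinations of gene and group, 18 were picked out, and chance alone picks out about 1 in 20. All values are CPM.

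In scWAT, Ctrl at 22 °C replicate 2 stood at 49.6 for Gbp2 (others 30.6 to 33.0) and 55.5 for Gbp3 (others 13.4 to 14.8). Ctrl at 13 °C replicate 2 was low for 3 genes, at 9.01 for Gbp3 (others 17.6 to 22.3), 9.04 for Igtp (21.6 to 29.8) and 9.83 for Irf9 (19.0 to 21.8). Ctrl at 13 °C replicate 1 was high for Ifih1, at 28.8 (15.1 to 17.7). GC at 13 °C replicate 5 was low for Gbp4 at 2.26 (6.05 to 6.89), Irf7 at 13.1 (23.3 to 25.01) and Mx1 at 0.153 (0.974 to 1.21).

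In iBAT, Ctrl at 13 °C replicate 1 was high for Ifih1 at 15.96 (4.33 to 5.64), Irf9 at 17.8 (8.19 to 9.28) and Irgm1 at 28.2 (6.32 to 9.77). GC at 22 °C replicate 3 was low for Gbp3 at 1.78 (7.78 to 9.71), and replicate 5 was high for Ifi44 at 1.40 (0.406 to 0.595). GC at 13 °C replicate 3 was high for Gbp7 at 9.09 (4.09 to 4.32), and replicate 5 was low for Rsad2 at 1.27 (5.03 to 6.55). Mx1 stood at 0.0803 in Ctrl at 13 °C replicate 4 and at 0.0592 in GC at 13 °C replicate 2, with no count in the other libraries of those groups, so a few reads set both.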

How the results depend on the processing

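Of the fold changes given in full, 1 changed sign: with 1 library left out, Ifit3 in scWAT at 22 °C ran from -2.0009 to 0.24, the latter without Ctrl replicate 2. The count in goWAT at 22 °C, 12, was 11 with relative log expression factors, 12 without the filter, 17 with DESeq2 and 8 to 16 with 1 library left out. Over all genes, the main fit called 1206 of 20175 there. The count was 1204 of 20175 with relative log expression factors, 921 of 31730 without the filter and 2367 of 22159 with DESeq2. Brackets below give all genes called in the same fit. DESeq2 called 5 members in scWAT GC against Ctrl at 22 °C (2330 of 22088) and 2 in scWAT 13 °C against 22 °C in GC (2914 of 21492). In goWAT it called 10 at 13 °C (962 of 18597) and 1 at 13 °C against 22 °C in GC (469 of 21566). In iBAT it called 2 at 22 °C (420 of 15582) and 5 at 13 °C (406 of 19644). Where the GC effect was compared between depots, it called 1 at 22 °C (791 of 21330) and 1 at 13 °C (302 of 20110). Without the low count filter, 5 members were called in goWAT against scWAT (3964 of 31911) and 1 in goWAT at 13 °C (230 of 31730). With the libraries that stand apart left out together, 8 were called in scWAT at 22 °C (738 of 19208), 7 in goWAT at 13 °C (435 of 20672) and 0 in scWAT 13 °C against 22 °C in GC (2 of 19208). With scWAT Ctrl at 22 °C replicate 2 left out as well, a choice made after seeing the data, these scWAT counts were 1 (422 of 19159) and 0 (2 of 19159). Leaving out the goWAT libraries with brown fat markers, also chosen after seeing the data, gave 16 calls in goWAT at 22 °C (2113 of 20097).

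With 1 library left out, the counts ran from 37 to 40 in iBAT against scWAT, 26 to 30 in iBAT against goWAT, 3 to 10 in goWAT against scWAT (3 without scWAT Ctrl at 22 °C replicate 2), 1 to 5 in scWAT at 22 °C (1 without Ctrl replicate 2, 5 without Ctrl replicate 1), 0 to 3 in scWAT 13 °C against 22 °C in GC (3 without GC at 22 °C replicate 1, 2 without replicate 5), 0 to 6 in goWAT at 13 °C (6 without GC at 22 °C replicate 4), 0 to 1 in iBAT at 22 °C, 0 to 2 in iBAT at 13 °C (2 without GC at 22 °C replicate 3) and 0 to 0 in the other comparisons.

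Within a depot, same-numbered libraries of different groups did not deviate together (median correlations of deviations 0.000352 in iBAT, 0.00466 in goWAT and -0.026 in scWAT, over 0.1 in 7 of 24, 6 of 27 and 5 of 24 pairs). These pairs lie inside a depot, so they cannot show whether same-numbered libraries of different depots share an animal. That was not checked. With a replicate block, 12 members were called in goWAT at 22 °C, of which 11 were among the 12 (Stat2 lost its call, as it did without the filter), 1 in scWAT at 22 °C, and 0 in goWAT at 13 °C, in iBAT at 13 °C and in scWAT 13 °C against 22 °C in GC. Members near or under 1 CPM (Mx1, Oas3, Gbp5, Isg15) rest on few reads, and groups of 3 to 5 libraries leave small changes below what can be called.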
